A study of Homo sapiens with 12 samples.

Results

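Integrins are cell-surface receptors built from an alpha and a beta subunit, and 10 integrin subunit genes other than those of the platelet fibrinogen receptor were followed here in CHRF288-11, an established human megakaryoblastic cell line: ITGA2, ITGA4, ITGA5, ITGA6, ITGAL, ITGAV, ITGB1, ITGB2, ITGB5 and ITGB7. They were chosen by name, with earlier results of these data known. Every one of their probes on the array was taken, 22 of 48803. A probe was tested where its detection score was above 0.99 on 3 or more of 12 arrays (detection p under 0.01), which left 13 integrin probes for 8 genes, of 14051 tested probes in all. Total RNA was hybridized to Illumina BeadChips, with 3 arrays that the series calls biological replicates in each of 4 groups: cells given recombinant Wnt3a at 150 ng/mL, cells given recombinant Wnt5a at 1200 ng/mL, cells given both at these amounts, and untreated cells. All groups had been kept without serum for 16 h and carry a time label of 8 h. The ligands were used at different amounts and no group is labelled as a vehicle control, so the kind of ligand and its amount cannot be told apart; 1 cell line was studied.

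The 12 arrays lay on 2 BeadChips. Chip 1 held Wnt3a 2 and 3, Wnt5a 1 and 3, and Untreated 2 and 3, and chip 2 held Wnt3a 1, Wnt5a 2, all 3 arrays with both ligands, and Untreated 1. Mean signals were 364.4 to 378.3 on chip 1 and 312.1 to 347.5 on chip 2, and 12511 to 14088 probes were detected per array. Of 18 megakaryocyte and platelet marker genes 16 were detected on all 12 arrays, ITGA2B, ITGB3, GP1BA and GP9 among them, while PF4 and PPBP were detected on 0. Markers of other lineages were fewer: 5 of 8 erythroid, 4 of 8 monocyte and granulocyte, 2 of 8 lymphoid, 1 of 6 stromal, 2 of 4 endothelial and 1 of 4 epithelial genes passed the detection rule. Levels below are normalized log2 signals, differences are log2 differences of chip-adjusted group means from a limma fit, and adjusted p-values are Benjamini-Hochberg values over all tested probes. A level of one probe cannot be set against that of another probe.

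The subunit pair decides what an integrin binds. ITGAV with ITGB5 makes a receptor for vitronectin, ITGA5 with ITGB1 the classical fibronectin receptor, ITGA2 with ITGB1 a collagen receptor that platelets also use, and ITGA6 with ITGB1 a laminin receptor. ITGAL with ITGB2 makes LFA-1, which binds ICAM proteins on other cells, and ITGA4 pairs with ITGB1 or ITGB7 to bind VCAM-1 or MAdCAM-1. Megakaryocytes carry the fibrinogen receptor of ITGA2B and ITGB3 beside these, and integrins anchor them in the marrow matrix. Inside the cell, talins and kindlins bind the beta subunit tail and switch the receptor to its high-affinity form.

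Of the 10 genes, ITGA5, ITGAL, ITGAV, ITGB1, ITGB2, ITGB5 and ITGB7 had at least 1 probe detected on all 12 arrays. ITGA2 passed the detection rule with 7 of 12 arrays: 3 of 3 with Wnt3a, 1 of 3 with Wnt5a, 1 of 3 with both ligands and 2 of 3 untreated. The best probe of ITGA6 lay just outside it, detected on 2 arrays (Wnt3a 3 and Untreated 3), and the other probes of ITGA6 were detected on 0. The single probe of ITGA4 was detected on 0 arrays, with deposited signals of 80.1 to 93.2. The map of detection by probe and array shows this division. Of the 6 probes for ITGB1, 3 were detected on all arrays and 3 on none, and of the 5 for ITGB5, 3 on all and 2 on none. Here detected means a detection p under 0.01, and the division depends on that threshold. The ITGA4 probe had detection p-values of 0.0184 to 0.0527, under 0.05 on 11 of 12 arrays, and the best ITGA6 probe was under 0.05 on 7 arrays and 1 further ITGB5 probe (ILMN_1701619) on 3. The other undetected probes of ITGA6, ITGB1 and ITGB5 were under 0.05 on 0 arrays. The ITGA2 probe was under 0.05 on all 12 arrays, with a highest detection p of 0.0263.

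**Figure D1:**
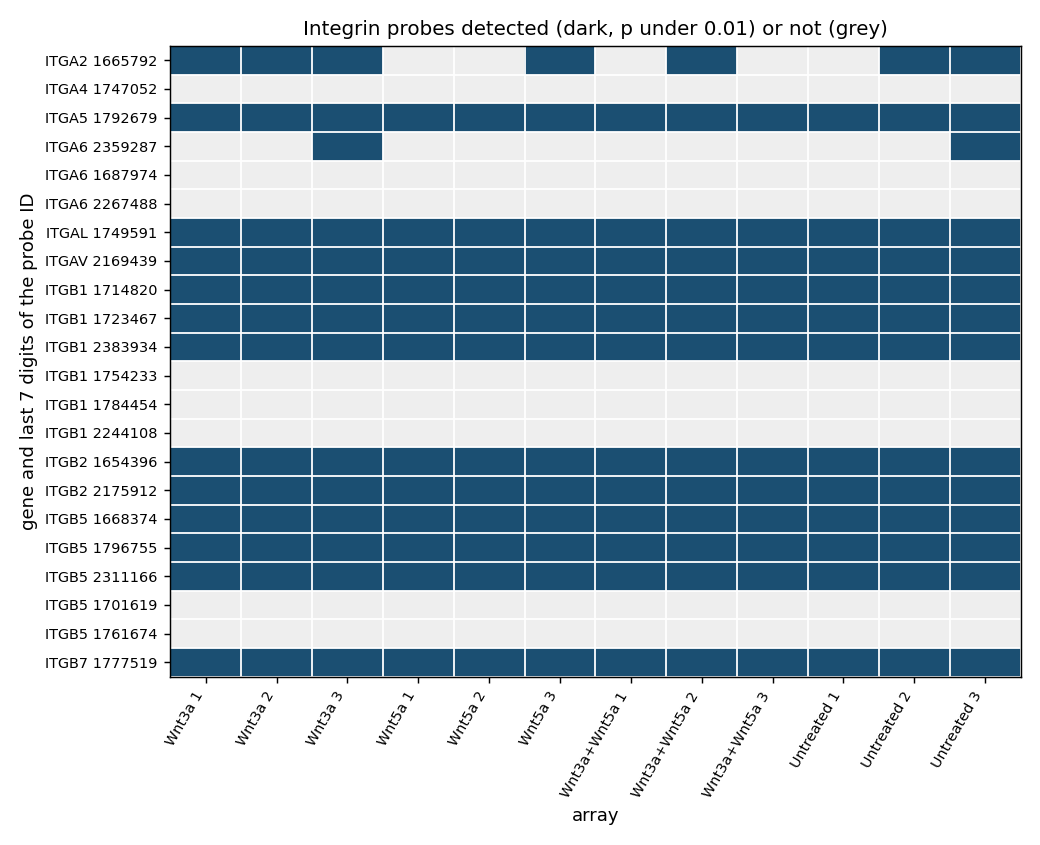
Detection of the 22 integrin probes (rows, gene and probe number) on 12 arrays (columns). Dark cells have a detection p under 0.01; 12 probes were dark on every array, ITGA2 on 7 arrays, 1 ITGA6 probe on 2, and 8 probes on none.

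Set against their known partners, the detected subunits left some pairs without one side at this threshold. For ITGB7, ITGA4 was detected on 0 arrays, with 11 under the looser 0.05, and its other partner ITGAE, which binds E-cadherin in the pair with ITGB7, on 12. For ITGB2, the partners ITGAL and ITGAM were detected on 12 and 11 arrays, and ITGAX and ITGAD on 0. For ITGAV, the partners ITGB5, ITGB1 and ITGB3 were detected on 12 arrays each, and ITGB6 and ITGB8 on 0. Of the 16 other integrin subunit genes, all of them on the array, 6 passed the detection rule: ITGA2B, ITGA3, ITGA11, ITGAE, ITGAM and ITGB3.

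Across the 4 groups 1 of the 13 integrin probes passed the moderated F test, and it was the ITGB5 probe with the smallest p (ILMN_1668374, adjusted p = 0.0146), against 8.8% of all tested probes. The promoter of ITGB5 is shown because ITGB5 was the 1 member gene that passed in a comparison with untreated cells, and that of ITGA5 because it passed between the ligands. Both are 300-base RefSeq windows of GRCh38.p14 around an annotated transcription start; of the 3 windows listed for ITGB5 the one with most CG dinucleotides was taken. The ITGB5 window is chr3:124887316-124887615 on the minus strand and that of ITGA5 is chr12:54419217-54419516 on the minus strand. Capitals mark GC boxes (GGGCGG, known as Sp1 sites) and AP-1 motifs (TGANTCA), searched on both strands together with TCF/LEF cores (CTTTGA or CTTTGT).
ITGB5: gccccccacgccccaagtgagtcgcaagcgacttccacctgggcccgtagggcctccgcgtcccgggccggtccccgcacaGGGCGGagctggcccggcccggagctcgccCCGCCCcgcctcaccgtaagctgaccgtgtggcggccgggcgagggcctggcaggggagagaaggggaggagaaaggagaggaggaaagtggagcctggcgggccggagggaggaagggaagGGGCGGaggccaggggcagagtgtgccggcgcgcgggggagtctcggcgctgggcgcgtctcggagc
ITGA5: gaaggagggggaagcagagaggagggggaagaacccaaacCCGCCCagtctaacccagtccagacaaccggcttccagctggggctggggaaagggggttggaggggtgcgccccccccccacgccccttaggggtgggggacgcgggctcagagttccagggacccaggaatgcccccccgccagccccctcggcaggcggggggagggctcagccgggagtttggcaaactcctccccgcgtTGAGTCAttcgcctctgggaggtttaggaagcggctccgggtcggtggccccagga

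The ITGB5 window holds 3 GC boxes, no TCF/LEF core and no AP-1 motif, and the ITGA5 window 1 GC box, 1 AP-1 motif and no TCF/LEF core. Over 34943 RefSeq windows, 44.9% hold a GC box, 26.2% a TCF/LEF core and 7.72% an AP-1 motif. Of the 8 member genes with a listed window, taken by the same rule, 5 held a GC box, 1 (ITGB7) a TCF/LEF core and 1 (ITGA5) an AP-1 motif. The 34943 windows were counted without that choice by CG dinucleotides, so their shares are not like for like with the member counts. These matches describe letters in the windows and nothing of what binds there.

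ITGB5, the beta subunit of the vitronectin receptor, was higher in cells given Wnt5a and in cells given both ligands than in untreated cells. On the probe with the smallest F test p (ILMN_1668374) the normalized log2 signal was 11.19, 11.09 and 11.05 with Wnt3a, 11.39, 11.25 and 11.25 with Wnt5a, 11.38, 11.33 and 11.42 with both ligands, and 11.00, 10.93 and 10.99 in untreated cells. All treated arrays lay above all untreated arrays, and all Wnt3a arrays lay below all Wnt5a arrays and below all arrays with both ligands. The rise over untreated cells was 0.32 ± 0.07 in log2 with Wnt5a (SE, n = 3 per group; 1.25-fold; limma adjusted p = 0.0141) and 0.38 ± 0.08 with both ligands (1.30-fold; limma adjusted p = 0.0118). With Wnt3a the difference from untreated cells was 0.13 ± 0.07 (95% CI -0.01 to 0.28; limma adjusted p = 0.472), which did not pass. In RNA from whole cultures, more RNA per cell and more cells that carry the transcript cannot be told apart.

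A further ITGB5 probe (ILMN_2311166) gave log2 signals of 10.41, 10.40 and 10.41 with Wnt3a, 10.55, 10.41 and 10.66 with Wnt5a, 10.78, 10.53 and 10.68 with both ligands, and 10.26, 10.20 and 10.47 in untreated cells. The arrays with both ligands lay above all untreated arrays, and the Wnt5a arrays overlapped the untreated ones before chip adjustment but not after it. It rose by 0.42 ± 0.10 with both ligands (1.33-fold; limma adjusted p = 0.0276), while its difference of 0.23 ± 0.09 with Wnt5a did not pass (95% CI 0.04 to 0.42; limma adjusted p = 0.178). The remaining detected probe (ILMN_1796755) gave 8.21, 7.85 and 7.89 with Wnt3a, 8.14, 8.01 and 7.93 with Wnt5a, 8.15, 8.22 and 8.34 with both ligands, and 8.04, 7.76 and 7.71 in untreated cells. The arrays with both ligands again lay above the untreated ones. It passed in neither comparison, with 0.19 ± 0.09 for Wnt5a (limma adjusted p = 0.312) and 0.26 ± 0.10 for both ligands (limma adjusted p = 0.161). All 3 detected probes had positive differences from untreated cells in each treated group in the fit, and 2 of them passed in at least 1 comparison. On single chips the Wnt5a difference of ILMN_1796755 was 0.30 on chip 1 and -0.04 on chip 2. That of ILMN_2311166 was 0.27 and 0.15. The 5 ITGB5 probes are annotated to the same transcript.

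**Figure D2:**
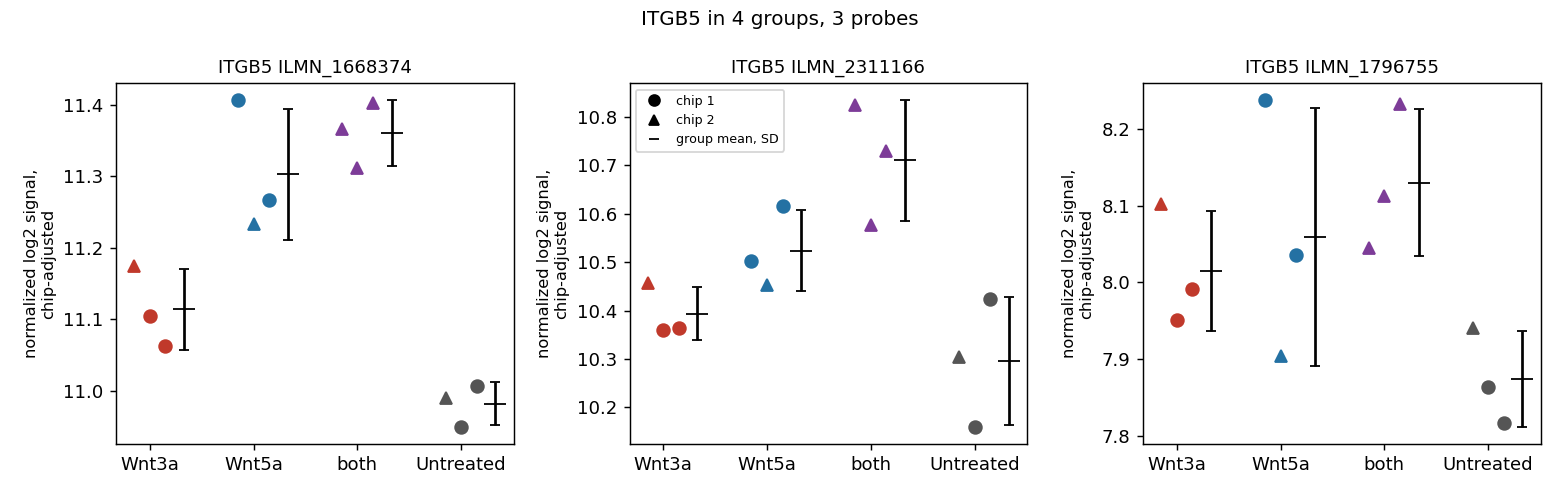
Chip-adjusted normalized log2 signal of the 3 detected ITGB5 probes (vertical axes) in Wnt3a, Wnt5a, both ligands and untreated cells; circles are chip 1, triangles chip 2, and bars the group mean with SD (n = 3). On ILMN_1668374 the 3 untreated arrays lie below the other 9.

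In order of level on ILMN_1668374, cells with both ligands came first, then Wnt5a, Wnt3a and untreated cells. Both ligands and Wnt5a alone did not pass as different (0.06 ± 0.08; 95% CI -0.11 to 0.22; limma adjusted p = 0.879), nor did Wnt3a and Wnt5a (-0.19 ± 0.07; limma adjusted p = 0.136), nor Wnt3a and untreated cells. Adding Wnt5a to Wnt3a gave a difference of 0.25 ± 0.08 (limma adjusted p = 0.0896). The interaction, which asks whether the ligands depart from adding up on the log2 scale, was -0.07 ± 0.10 (95% CI -0.29 to 0.15; limma adjusted p = 0.892). On single chips the Wnt5a difference was 0.36 on chip 1 and 0.24 on chip 2, and that of both ligands was 0.37 on chip 2, the only chip that held them.

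The ITGB5 calls depend on single arrays, both untreated and treated. Without Untreated 1, ILMN_1668374 kept its size (0.33 with Wnt5a, 0.39 with both ligands) and no longer passed (adjusted p = 0.0613 and 0.11); without Untreated 2 the Wnt5a call also ended (0.30; adjusted p = 0.061). The call of ILMN_2311166 with both ligands ended without Untreated 1 (adjusted p = 0.177), Wnt5a 2 (0.0518), combination array 1 (0.0726) or 3 (0.0712), and where dim probes were tested too.

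By the rule of likeness, the 5 tested genes whose chip-adjusted values followed ILMN_1668374 most closely over the 12 arrays were PIK3IP1 (Pearson r = 0.96), an inhibitor of PI3-kinase, TIAF1 (0.96), the fibroblast growth factor receptor FGFR3 (0.95), the podosome scaffold SH3PXD2A (0.95) and the histone gene H2BC5 (0.95). With Wnt5a the differences from untreated cells were 0.93 for FGFR3, 0.90 for SH3PXD2A, 0.52 for PIK3IP1, 0.36 for TIAF1 and 0.27 for H2BC5. The genes were picked for following a probe that rose with Wnt5a, so differences in that direction come with the choice. These values share the arrays, the normalization and the group means, and are given as a description.

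ITGAV, the alpha partner of ITGB5, did not pass in any comparison. Its log2 signal was 6.13, 6.41 and 6.52 with Wnt3a, 6.61, 6.56 and 6.97 with Wnt5a, 6.56, 7.04 and 6.60 with both ligands, and 6.19, 6.72 and 6.30 in untreated cells. Before chip adjustment Untreated 2 lay within the range of the cells given both ligands, and after it the groups did not overlap. The difference from untreated cells was 0.52 ± 0.16 with both ligands (95% CI 0.17 to 0.88; limma adjusted p = 0.0739) and 0.31 ± 0.14 with Wnt5a (limma adjusted p = 0.284). Adding Wnt5a to Wnt3a gave 0.58 ± 0.16 (limma adjusted p = 0.0645), and Wnt3a alone differed from untreated cells by -0.05 ± 0.14 (95% CI -0.36 to 0.25; limma adjusted p = 0.941). ITGAV signals were higher on chip 1 than on chip 2 by 0.30 (limma adjusted p = 0.189), within chip 2 both ligands exceeded the 1 untreated array by 0.54, and without the chip term the difference with both ligands was 0.33 (adjusted p = 0.333). It was 0.19 in the authors' log2 table (adjusted p = 0.0938). Without background correction, with an offset of 50 or among probes detected on all 12 arrays, the difference with both ligands passed (adjusted p = 0.0353, 0.036 and 0.0487), at 0.30, 0.38 and 0.52.

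ITGA5, the alpha subunit of the classical fibronectin receptor, was lower in cells given Wnt3a than in cells given Wnt5a. Its log2 signal was 9.35, 9.22 and 9.32 with Wnt3a, 9.74, 9.53 and 9.65 with Wnt5a, 9.62, 9.34 and 9.58 with both ligands, and 9.67, 9.48 and 9.68 in untreated cells. The Wnt3a arrays lay below all Wnt5a and all untreated arrays and overlapped those with both ligands. ITGA5 with Wnt3a fell by 0.35 ± 0.09 in log2 relative to Wnt5a (SE, n = 3 per group; limma adjusted p = 0.0458). On single chips this difference between the ligands was -0.43 on chip 1 and -0.18 on chip 2. Relative to untreated cells the Wnt3a difference was -0.31 ± 0.09 (95% CI -0.51 to -0.12; limma adjusted p = 0.146), which did not pass over all probes, and it was -0.31 on chip 1 and -0.32 on chip 2. Wnt5a alone differed from untreated cells by 0.03 ± 0.09 (95% CI -0.17 to 0.23; limma adjusted p = 0.916).

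In order of ITGA5 level, Wnt5a came first, then untreated cells, both ligands and Wnt3a, and no neighbours in that order passed as different; both ligands and Wnt3a differed by 0.22 ± 0.11 (limma adjusted p = 0.26). The interaction was 0.19 ± 0.14 (95% CI -0.12 to 0.49; limma adjusted p = 0.76). The call between Wnt3a and Wnt5a lies near its threshold. It ended without any 1 of Wnt3a 1, 2 or 3, Wnt5a 1 or 3, combination array 3, or Untreated 1 or 3 (adjusted p = 0.0979, 0.166, 0.108, 0.136, 0.148, 0.0601, 0.059 and 0.0579), with differences of -0.43 to -0.29 over the 12 arrays left out in turn. It also ended under median scaling (adjusted p = 0.0769) and where more dim probes were tested (0.0889 and 0.131).

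**Figure D3:**
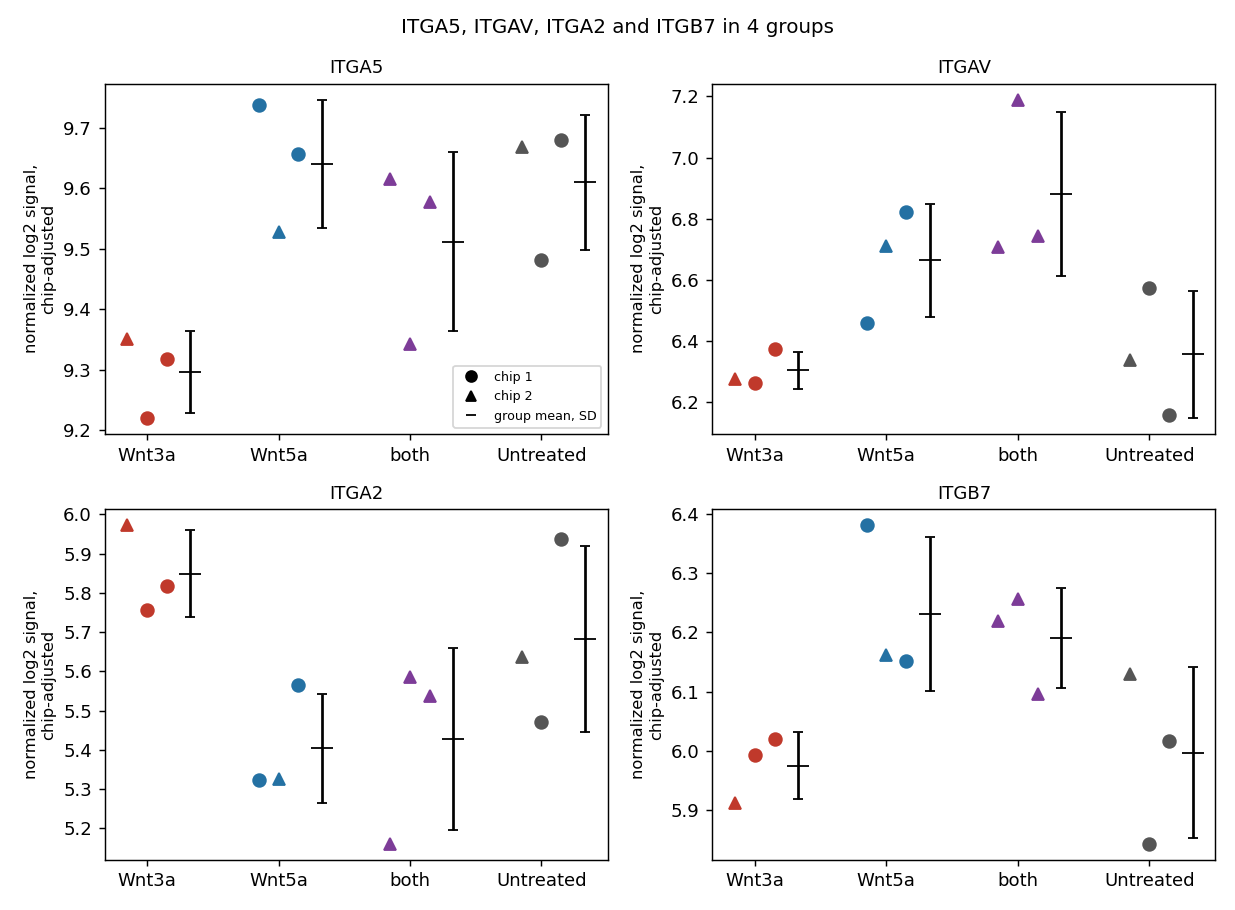
Chip-adjusted normalized log2 signal of ITGA5, ITGAV, ITGA2 and ITGB7 (vertical axes) in Wnt3a, Wnt5a, both ligands and untreated cells; circles are chip 1, triangles chip 2, and bars the group mean with SD (n = 3). The Wnt3a arrays of ITGA5 lie below all Wnt5a and untreated arrays, and those of ITGA2 above all arrays with Wnt5a or both ligands.

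ITGA2, the collagen-binding alpha subunit, was dim and passed in no comparison. Its log2 signal was 5.95, 5.78 and 5.84 with Wnt3a, 5.34, 5.30 and 5.59 with Wnt5a, 5.14, 5.56 and 5.51 with both ligands, and 5.62, 5.49 and 5.96 in untreated cells. All Wnt3a arrays lay above all Wnt5a arrays and all arrays with both ligands, whereas the untreated arrays spread over both ranges. The difference between Wnt3a and Wnt5a was 0.44 ± 0.14 (95% CI 0.15 to 0.74; limma adjusted p = 0.0858), and between both ligands and Wnt3a -0.42 ± 0.16 (limma adjusted p = 0.146). At a detection p under 0.01 it was detected on 1 of 3 arrays with Wnt5a and on 1 of 3 with both ligands. The Wnt3a to Wnt5a difference was 0.18 without background correction and 0.10 in the authors' log2 table.

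ITGB1, the beta subunit shared by most of these pairs, passed in no comparison on any of its 3 detected probes. On ILMN_1723467 the log2 signal was 10.30, 10.15 and 10.37 with Wnt3a, 10.15, 10.26 and 10.32 with Wnt5a, 10.40, 10.32 and 10.36 with both ligands, and 10.14, 10.22 and 10.18 in untreated cells. The arrays with both ligands lay above the untreated ones, with a difference of 0.18 ± 0.08 (95% CI -0.0045 to 0.36; limma adjusted p = 0.233). Over 6 comparisons of groups the intervals of this probe ran from -0.12 to 0.36. The probe ILMN_1714820 gave 7.17, 6.80 and 6.84 with Wnt3a, 6.83, 6.83 and 6.61 with Wnt5a, 6.75, 6.94 and 6.85 with both ligands, and 6.90, 6.74 and 6.72 in untreated cells. Its groups overlapped on the measured scale, and its largest difference in size was -0.23 ± 0.09 between both ligands and Wnt3a (limma adjusted p = 0.174). The probe ILMN_2383934, which carries the ITGB1 symbol in the deposited file alone, differed by -0.02 to 0.06 over the 6 comparisons, with intervals from -0.19 to 0.26. The probes differed in sign for both ligands against untreated cells, with 0.18 on ILMN_1723467, -0.08 on ILMN_1714820 and 0.04 on ILMN_2383934. Without the chip term these were 0.18, 0.06 and 0.09, all of 1 sign. ILMN_1723467 and ILMN_1714820 are annotated to different transcripts of ITGB1. Another probe annotated to the transcript of ILMN_1714820 (ILMN_1784454) was detected on 0 arrays. The cause of the difference in sign was not tested.

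The leukocyte integrin subunits ITGB2, ITGAL and ITGB7 passed in no comparison. For ITGB2, the beta subunit of LFA-1, the log2 signal on ILMN_2175912 was 9.18, 9.18 and 9.18 with Wnt3a, 9.28, 9.16 and 9.13 with Wnt5a, 9.17, 9.17 and 9.22 with both ligands, and 9.15, 9.17 and 9.20 in untreated cells. The other probe, ILMN_1654396, gave 8.34, 8.34 and 8.38 with Wnt3a, 8.41, 8.39 and 8.37 with Wnt5a, 8.41, 8.29 and 8.34 with both ligands, and 8.42, 8.32 and 8.41 in untreated cells. The 4 groups overlapped on both probes. The differences of ILMN_2175912 lay between -0.01 and 0.03 in 6 comparisons, with intervals from -0.14 to 0.18, and those of ILMN_1654396 between -0.05 and 0.01, with intervals from -0.20 to 0.13.

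ITGAL, the alpha subunit of LFA-1, had log2 signals of 6.98, 6.88 and 6.82 with Wnt3a, 7.18, 7.09 and 7.17 with Wnt5a, 6.90, 7.06 and 7.05 with both ligands, and 6.82, 7.01 and 7.05 in untreated cells. All Wnt5a arrays lay above those of the other 3 groups, and the difference from untreated cells was 0.18 ± 0.08 (95% CI 0.01 to 0.35; limma adjusted p = 0.24). ITGB7, whose pairs guide lymphocytes to mucosal tissue, had 5.90, 6.0 and 6.03 with Wnt3a, 6.39, 6.15 and 6.16 with Wnt5a, 6.21, 6.25 and 6.09 with both ligands, and 6.12, 5.85 and 6.03 in untreated cells. Its Wnt5a arrays lay above the Wnt3a and untreated arrays, with differences of 0.23 ± 0.09 from untreated cells (limma adjusted p = 0.182), which was 0.34 on chip 1 and 0.03 on chip 2. Wnt3a minus Wnt5a was -0.25 ± 0.08 for ITGAL and -0.26 ± 0.09 for ITGB7 (limma adjusted p = 0.0906 and 0.134). These sizes also moved with the background correction: Wnt5a minus untreated was 0.12 for ITGAL and 0.12 for ITGB7 without it, and 0.08 and 0.07 in the authors' log2 table, and Wnt3a minus Wnt5a was -0.16 and -0.13 without it, and -0.11 and -0.07 in that table.

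Counted over all 13 integrin probes, Wnt3a against untreated cells gave 0 calls in the limma fit, where 1.52% of all tested probes passed (0.947% higher, 0.569% lower), and 1 probe (ITGA5) with an unadjusted p under 0.05, where 12.1% of all probes had one. Wnt5a gave 1 call, higher, beside 5.25% of all probes in either direction (2.92% higher, 2.33% lower), and 5 integrin probes with an unadjusted p under 0.05 beside 17.5%. Both ligands gave 2 calls, both higher and both of ITGB5, beside 7.77% in either direction (4.45% higher, 3.32% lower), and 4 with an unadjusted p under 0.05 beside 22.6%. The probes of 1 gene are not independent. The comparisons with untreated cells share those 3 arrays.

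Adding Wnt5a to Wnt3a gave 0 calls beside 4.61% of all probes (2.78% higher, 1.84% lower), with 5 integrin probes at an unadjusted p under 0.05 beside 21.5%. Adding Wnt3a to Wnt5a gave 0 calls beside 0.121%, with 0 at an unadjusted p under 0.05 beside 8.85%. Wnt3a against Wnt5a gave 1 call, that of ITGA5, beside 5.9% of all probes (2.58% higher, 3.32% lower), with 7 integrin probes at an unadjusted p under 0.05 beside 18%. No interaction passed for any of the 14051 tested probes, and 0 integrin probes had an unadjusted p under 0.05 for it beside 7.82%. Chip-adjusted groups did not overlap for 4 of the 13 integrin probes with Wnt3a against untreated cells, beside 20.5% of all probes, for 4 with Wnt5a beside 24.5%, and for 5 with both ligands beside 34.1%. Between treated groups they did not overlap for 6 when Wnt5a was added to Wnt3a, beside 34.8%, for 2 when Wnt3a was added to Wnt5a, beside 19.4%, and for 6 between Wnt3a and Wnt5a, beside 26.2%. The median difference over the 13 probes was 0.01 with Wnt3a, 0.06 with Wnt5a and 0.08 with both ligands, beside -0.0014, -0.0046 and -0.0099 over all tested probes. The plot of differences by probe shows the 4 calls among these comparisons.

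**Figure D4:**
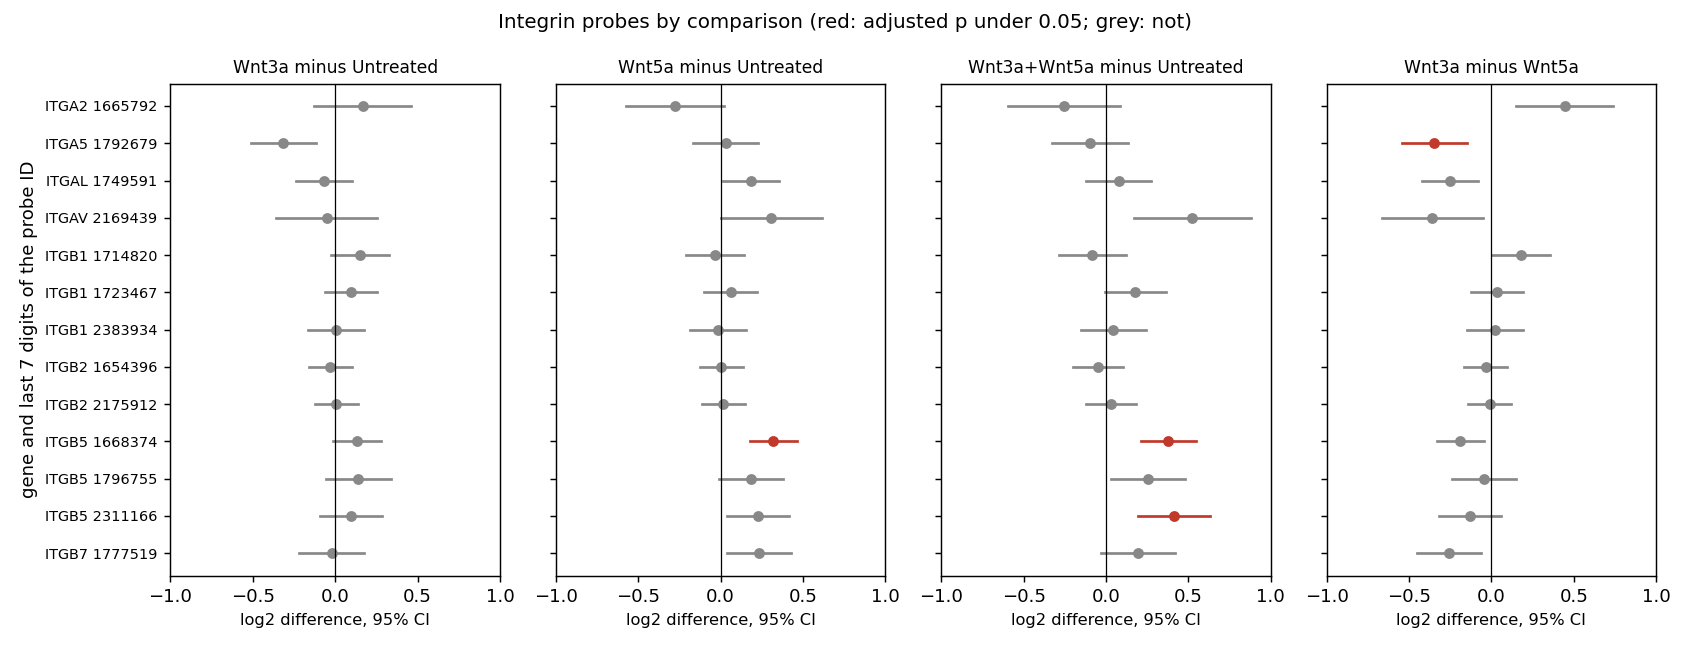
Log2 difference with 95% CI (horizontal axes) of the 13 tested integrin probes (rows) for Wnt3a, Wnt5a and both ligands against untreated cells and for Wnt3a against Wnt5a. Red marks an adjusted p under 0.05: ITGB5 with Wnt5a (1 probe) and with both ligands (2 probes), and ITGA5 between Wnt3a and Wnt5a.

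Beside these members, the subunits of the fibrinogen receptor passed in no comparison: ITGA2B differed from untreated cells by 0.01, -0.14 and -0.19 with Wnt3a, Wnt5a and both ligands, and ITGB3 by -0.09, 0.01 and -0.01. Among the 6 tested subunits outside the member list 0 passed in the limma fit against untreated cells, beside 1.52%, 5.25% and 7.77% of all tested probes. For Wnt3a, Wnt5a and both ligands 1, 1 and 2 had an unadjusted p under 0.05, beside 12.1%, 17.5% and 22.6%. ITGAE was singled out after its values were seen. It rose when Wnt5a was added to Wnt3a (0.40 ± 0.09 in log2, limma adjusted p = 0.0328), where 4.61% of all tested probes passed. Against untreated cells ITGAE was at -0.31, -0.18 and 0.10 with Wnt3a, Wnt5a and both ligands (limma adjusted p = 0.102, 0.275 and 0.602).

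Of 15 tested genes of talin, kindlin and integrin activation, 1 rose with Wnt3a, 1 fell with Wnt5a, and 1 rose and 1 fell with both ligands, on the brightest probe of each. Over all tested probes 1.52%, 5.25% and 7.77% passed in these comparisons. FERMT1, which encodes kindlin-1, rose by 0.84 ± 0.08 in log2 with Wnt3a (SE, n = 3 per group; limma adjusted p = 0.000201), where it was detected on 3 of 3 arrays with Wnt3a and 2 of 3 untreated. FERMT2, which encodes kindlin-2, fell by 0.51 ± 0.07 with Wnt5a (limma adjusted p = 0.00157) and by 0.44 ± 0.09 with both ligands (limma adjusted p = 0.00993). KRIT1, which sequesters the integrin inhibitor ICAP-1, rose with both ligands on both of its tested probes (0.62 and 0.55; limma adjusted p = 0.0118 and 0.0499). The median over the 15 genes was -0.09, -0.10 and -0.06 with Wnt3a, Wnt5a and both ligands.

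Of 28 tested focal adhesion adaptors and kinases, TNS3 and CASS4 were detected on no untreated array and so entered the test through treated groups alone; they were left out of the counts after their values were seen. Among the other 26, on the brightest probe of each, 0 passed in the limma fit with Wnt3a (5 with an unadjusted p under 0.05), 1 rose and 1 fell with Wnt5a, and 1 rose and 2 fell with both ligands, beside 1.52%, 5.25% and 7.77% of all tested probes. PTK2, the focal adhesion kinase, rose by 0.27 ± 0.07 with Wnt5a and by 0.34 ± 0.08 with both ligands (limma adjusted p = 0.0435 and 0.024). Vinculin (VCL), which links talin to actin, fell by 0.30 ± 0.06 with Wnt5a and by 0.37 ± 0.07 with both ligands (limma adjusted p = 0.0122 and 0.00772), as did its other tested probe (-0.42 and -0.66). VASP, which lengthens actin filaments at adhesions, fell by 0.56 ± 0.09 with both ligands (limma adjusted p = 0.00314). On probes other than the brightest, singled out after their values were seen, FYN, a Src-family kinase, fell with Wnt5a (-0.41; limma adjusted p = 0.0201) and with both ligands (-0.40 and -0.31; limma adjusted p = 0.0363 and 0.0456). With both ligands ILK, the integrin-linked kinase, and LIMS1, its partner PINCH-1, likewise fell on 1 such probe each (-0.39 and -0.41; limma adjusted p = 0.0465 and 0.0356). The brightest probes of FYN, ILK and LIMS1 did not pass. With both ligands those of FYN and ILK were at -0.17 and -0.18 (limma adjusted p = 0.286 and 0.217). That of LIMS1 had the opposite sign, at 0.09 (limma adjusted p = 0.565). The medians over the 26 genes were -0.08 with Wnt3a, -0.08 with Wnt5a and -0.08 with both ligands. The adaptor TNS3 (tensin-3), detected on every treated array, was at least 1.11-fold higher with Wnt3a, 1.07-fold with Wnt5a and 1.33-fold with both ligands than in untreated cells. CASS4, a docking protein of the p130Cas family, was detected on 3 of 3 Wnt3a arrays and was at least 1.39-fold higher there. Both are given as descriptions, with no test.

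Of 42 integrin ligand genes 17 were tested. Fibronectin (FN1), vitronectin (VTN), VCAM1, MADCAM1 and ICAM1, known ligands of the members' pairs that were singled out after their values were seen, were detected on 0 arrays. With Wnt3a 1 rose and 1 fell, with Wnt5a 1 rose and 1 fell, and with both ligands 2 rose and 3 fell, beside the same 1.52%, 5.25% and 7.77% of all tested probes. COL6A3, a chain of collagen VI, rose by 0.80 ± 0.07 with Wnt5a and by 0.82 ± 0.08 with both ligands (limma adjusted p = 4.94e-05 and 0.00013). LRRC32, which presents latent TGF-beta to ITGAV integrins, rose by 0.98 ± 0.10 with Wnt3a and by 0.80 ± 0.11 with both ligands (limma adjusted p = 0.000199 and 0.00121). ICAM2, a ligand of LFA-1, fell by 0.46 ± 0.07 with Wnt5a and by 0.58 ± 0.08 with both ligands (limma adjusted p = 0.00312 and 0.00167). Thrombospondin-1 (THBS1) fell by 0.39 ± 0.06 with Wnt3a and by 0.28 ± 0.07 with both ligands (limma adjusted p = 0.00916 and 0.0426). ICAM4, an erythroid ligand, fell with both ligands (-0.36 ± 0.10, and -0.31 on its other probe; limma adjusted p = 0.045 and 0.0489). F11R, a junctional adhesion molecule, passed with both ligands on a probe other than its brightest alone (-0.39, limma adjusted p = 0.045). Its brightest probe had the opposite sign, at 0.12 (limma adjusted p = 0.535). The list medians were -0.06, -0.0066 and 0.01.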

How the data were processed

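The authors deposited a signal per probe and array, an intensity that was not normalized per the file headers, and a detection score, a fraction from 0 to 1 that is high for bright probes; its complement to 1 served as detection p. The deposited value table is in log2 units and normalized; lumi is named in the submitters' processing notes, with no version or role, and no other step is given in the sources used here. Background was corrected by normexp, with the negative controls' level inferred from detection p, an offset of 16 was added, and log2 values followed quantile normalization (limma 3.58.1, R 4.3.3). Probes with a detection p under 0.01 on 3 or more of 12 arrays were tested.

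One model with the 4 group means and a term for the chip covered the 12 arrays (lmFit, contrasts.fit, eBayes; 7 residual and 5.04 prior degrees of freedom), with two-sided p-values, Benjamini-Hochberg adjustment over 14051 probes and a threshold of 0.05. Symbols came from the platform annotation, updated through RefSeq, for 11775 tested probes and from the deposited file for 2274. Probes of a gene were not averaged; other lists used the brightest tested probe. Folds of a gene undetected in a group are lower bounds against the higher of the lowest detected signal and its own value on each array, from means without chip adjustment.

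Every tested member probe is named. From the other lists, up to 6 genes by F test p that passed against untreated cells are named. Other integrin subunits are named as detected or not, and ITGAE, the fibrinogen receptor subunits and undetected ligands were added outside this rule. Likeness was Pearson correlation with the member probe of smallest F test p. Members and lists were chosen with earlier results of these data known. The fit was tested on simulated data. Background correction, offset, scaling, the authors' table, the detection filter, the chip term, a replicate block and leaving out each array were tried. The number of arrays limits the precision.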

Additional observations from a re-analysis of the deposited data

How the results depend on the processing

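Of the 13 integrin probes, the fit above called 0 with Wnt3a, 1 with Wnt5a, 2 with both ligands, 0 for Wnt5a added to Wnt3a, 0 for Wnt3a added to Wnt5a, 1 for Wnt3a against Wnt5a, 0 for the interaction and 1 in the F test. The shares of all tested probes that passed under other settings are not given here, so the counts that follow describe the integrin probes alone. Counts that stayed within 1.5 times of the fit above are not repeated. Among the changes not repeated, ITGAV passed with both ligands without background correction, with an offset of 50 and among probes detected on all 12 arrays. Without background correction the counts were 1 with Wnt3a, 3 for Wnt5a added to Wnt3a and 4 in the F test. With an offset of 50 they were 2 for Wnt5a added to Wnt3a and 4 in the F test, and in the authors' log2 values they were 2 for Wnt5a added to Wnt3a, 2 for Wnt3a against Wnt5a and 3 in the F test. Median scaling gave 0 for Wnt3a against Wnt5a. Testing all 48803 probes gave 1 with both ligands and 0 for Wnt3a against Wnt5a, as did a detection p under 0.05 on 3 arrays; more probes enter the adjustment there. Probes detected on all 12 arrays gave 1 for Wnt5a added to Wnt3a and 2 in the F test. Leaving out 1 array at a time gave 0 to 1 with Wnt5a, 0 to 3 with both ligands, 0 to 1 for Wnt5a added to Wnt3a, 0 to 2 for Wnt3a against Wnt5a, 0 to 2 in the F test, and 0 to 0 in the other comparisons. The causes of these changes were not tested. No sign of a called difference turned under any of these settings. Replicate numbers are shared between groups in the labels, which do not say what they mark. After chip adjustment, deviations of same-numbered arrays had correlations from -0.41 to 0.41, over 0.1 in 9 of 18 pairs. The lowest, between Wnt3a 1 and Untreated 1, was 0.50 before chip adjustment. Each of these arrays was the only chip 2 array of its group, so the chip term weighs on that value. Of 12 arrays, 9 correlated best with one of their own number. These values do not decide whether the numbers pair the arrays, and the main fit did not pair them. A replicate block gave 1 call with Wnt3a (ITGA5, adjusted p = 0.0253), 3 in the F test and no other change of these counts by over 1.5 times. Differences of ITGA2, ITGAV, ITGAL and ITGB7 given above were smaller without background correction and in the authors' log2 values, by over 1.5 times.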

Other observations

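Proteins that sit beside integrins in the membrane were not described above. Of 18 tested genes of tetraspanins and integrin partners, 0 rose and 0 fell in the limma fit with Wnt3a (5 with an unadjusted p under 0.05), and 0 rose and 2 fell with Wnt5a and with both ligands, on the brightest probe of each, beside 1.52%, 5.25% and 7.77% of all tested probes. These 2 were CAV1, the caveolar coat protein, and SLC3A2, the CD98 heavy chain that binds beta subunit tails. CAV1 fell by 0.54 ± 0.08 in log2 with Wnt5a and by 0.73 ± 0.10 with both ligands (SE, n = 3 per group; limma adjusted p = 0.00245 and 0.000831), with its other tested probe at -0.30 (limma adjusted p = 0.174) and -0.57 (limma adjusted p = 0.0223). The brightest SLC3A2 probe fell by 0.28 ± 0.06 with Wnt5a and by 0.39 ± 0.07 with both ligands (limma adjusted p = 0.0251 and 0.00872). The other SLC3A2 probes were at -0.47 and -0.30 with Wnt5a (limma adjusted p = 0.00346 and 0.126) and at -0.78 and -0.42 with both ligands (limma adjusted p = 0.000375 and 0.049). LGALS8, a galectin, passed with both ligands on a probe other than its brightest alone (0.30; limma adjusted p = 0.0339). The list medians were -0.03, 0.03 and -0.03 with Wnt3a, Wnt5a and both ligands.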
